A study of Mus musculus with 12 samples.

Results

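Transcripts of 10 genes for secreted proteins of the yolk sac and, later, of the liver were followed in dissected mouse neural tubes: the carriers Ttr, Afp and Rbp4, the trypsin inhibitor Spink1, and the apolipoproteins Apoa1, Apoa2, Apoa4, Apob, Apoc2 and Apom. They are 10 of 18193 genes with a probe set of their own on the array, and they are read by 23 of 34945 such probe sets. They were listed because earlier results of these arrays showed them to differ between stages, so their changes between stages are given as a description and are not tested. Total RNA came from micro-dissected neural tubes, the embryonic precursor of brain and spinal cord, of ICR (CD-1) embryos, an outbred stock, at gestational days GD8.5, GD9.0 and GD9.5, counted from the vaginal plug as day 0. The labels name no treatment and no genetic change, and they give 4 biological replicates per stage but not whether a replicate is 1 litter or a pool.

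Log2 signals were deposited for 10 arrays (2 at GD8.5, replicates 3 and 4, and 4 each at GD9.0 and GD9.5). GD8.5 replicates 1 and 2 were deposited as linear intensities and are set beside the others by rank within the array, or with all 12 arrays after quantile normalization where that is said. The number of arrays limits the precision. A background level of 1.43 was taken from 38 olfactory receptor genes, as the level under which 95% of them lay. Defining genes of the labelled tissue were present: all 10 neural tube markers (Sox1, Sox2, Sox3, Pax3, Pax6, Nes, Cdh2, Fabp7, Zic1 and Neurog2) lay above the background at every stage, and their mean log2 level was 5.65 ± 0.02 at GD8.5 (SD, n = 2), 6.40 ± 0.03 at GD9.0 (n = 4) and 7.02 ± 0.04 at GD9.5 (n = 4).

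As background, the visceral endoderm is the outer epithelium of the yolk sac, and it does for the early embryo much of what the liver does later. It takes up maternal protein and lipid through endocytic receptors, packs lipid around apolipoprotein B with the microsomal transfer protein, and secretes carriers of retinol, thyroid hormone and fatty acids. Its secretory genes are driven by liver-type factors, among them HNF4A, FOXA and GATA proteins. The choroid plexus, a later outgrowth of the brain's roof, also makes transthyretin. In dissected tissue, fewer cells of a type and less RNA per cell cannot be told apart.

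Transcripts of all 10 genes were lower at each later stage. At GD9.0 their levels were 6.15% to 30.2% of those at GD8.5, with a median log2 change of -3.33. At GD9.5 they were 2.62% to 61.3% of those at GD9.0, with a median of -1.48, and over the full day the median was -5.40. The arrays of the later stage lay below those of the earlier stage without overlap for 10 of 10 genes in each of the 3 comparisons. Over all genes this held for 16.9% at GD9.0 against GD8.5, 11.9% at GD9.5 against GD9.0 and 22.7% at GD9.5 against GD8.5, and since the genes were picked on these contrasts nothing is read from the difference. A level at least 4-fold lower was found for 8 of 10 genes at GD9.0 against GD8.5 (0.368% of all genes), for 3 of 10 at GD9.5 against GD9.0 (0.0495%) and for 10 of 10 at GD9.5 against GD8.5 (0.495%). All genes together had median log2 changes of -0.0019, -0.0077 and -0.016 in the same order.

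**Figure D1:**
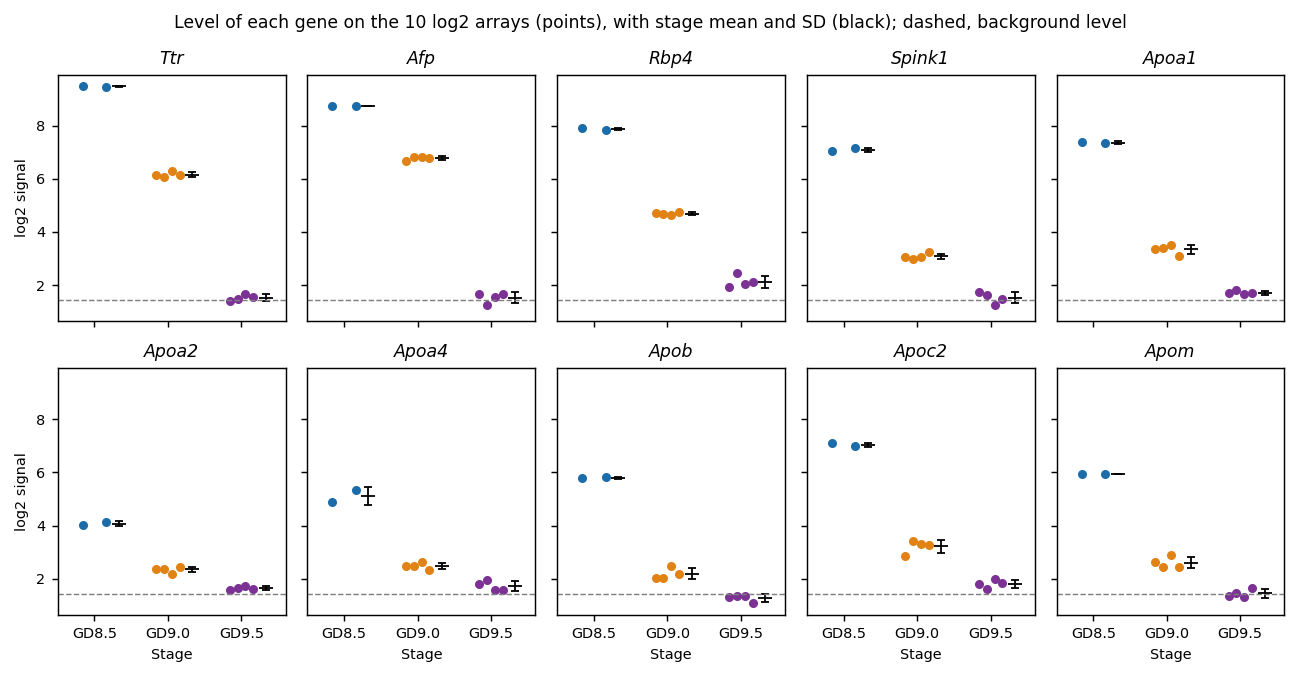
Log2 signal of the brightest probe set of each gene (vertical axis) at GD8.5, GD9.0 and GD9.5 (horizontal axis). Points are single arrays (2, 4 and 4 per stage), the black mark and bar beside them are the stage mean and SD, and the dashed line is the background level of 1.43. Every gene steps down at both intervals, and at GD9.5 the stage means lie between 1.27 and 2.13.

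Ttr encodes transthyretin, which carries thyroxine and binds the retinol carrier in plasma. Its brightest probe set read 9.50 and 9.46 at GD8.5, then 6.13, 6.08, 6.30 and 6.15 at GD9.0, then 1.39, 1.46, 1.68 and 1.56 at GD9.5 (log2 signal). The 3 stages were thus far apart, with a log2 change of -3.32 at GD9.0 against GD8.5 and of -4.64 at GD9.5 against GD9.0, and the GD9.5 arrays straddled the background. All 4 probe sets of the gene were lower at both intervals. They ranged from -3.60 to -3.32 in the first. In the second, 2 of the dimmer sets ended under the background, at least 10.4-fold and at least 13.9-fold lower, and the other, with -1.59, ended at 2.31. None of the 4 names ends in a plain _at, and that of the brightest ends in _x_at, which on this array marks probes that can also read other sequences.

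Afp encodes alpha-fetoprotein, the main plasma protein of the embryo and a relative of albumin. It read 8.75 and 8.74 at GD8.5, then 6.68, 6.84, 6.83 and 6.80 at GD9.0, then 1.66, 1.25, 1.54 and 1.67 at GD9.5. Afp thus kept 25.7% of its GD8.5 level at GD9.0 but only 2.62% of its GD9.0 level at GD9.5, log2 changes of -1.96 and -5.26. The step to GD9.0 made up 27.2% of its whole log2 change, the smallest share among the 10 genes. The GD9.5 arrays of Afp lay on both sides of the background, which limits its second change, and GD9.5 levels near the background limit the shares of all 10 genes. Of 5 probe sets, 3 lay above the background at GD8.5, and these had log2 changes of -2.34 to -1.86 in the first interval. In the second, the brightest was 38.2-fold lower, and the other 2 of these ended under the background, at least 8.97-fold and at least 12.9-fold lower. The remaining 2 read 1.05 and 1.42 at GD8.5, under the background, and showed 0.10 and -0.21 at GD9.5 against GD9.0. The mean of all 5 sets gave -1.31 and -2.56.

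The promoter of Afp is shown because the gene had the smallest share of its change in the first interval. Promoters of Apoa1 and Apoa2, which had most of theirs there, follow. The windows are RefSeq sequences of build GRCm38.p6, from 250 bases before to 50 bases after the annotated start, in lower case and 5′ to 3′ on the strand of the gene. Capitals mark letters of 5 short motifs searched on both strands, with overlaps kept: the HNF4 core AAGTCCA, the FOXA motif TGTTTAC and its variant TGTTTGC, the GATA motif AGATAA and the TATA box TATAAA. Afp lies on chromosome 5 (window chr5:90490464-90490763, plus strand). Its window held the FOXA variant at -55 and TATAAA at -7, each position being that of the first base on the gene's strand relative to the annotated start.
Afp: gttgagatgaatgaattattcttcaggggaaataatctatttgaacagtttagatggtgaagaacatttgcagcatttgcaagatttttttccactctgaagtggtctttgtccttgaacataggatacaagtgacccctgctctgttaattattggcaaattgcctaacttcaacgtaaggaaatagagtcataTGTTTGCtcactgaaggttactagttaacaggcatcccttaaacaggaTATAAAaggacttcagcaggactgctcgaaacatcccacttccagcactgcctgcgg

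Rbp4 encodes the plasma carrier of retinol, a lipocalin that travels bound to transthyretin. It read 7.90 and 7.84 at GD8.5, then 4.71, 4.67, 4.64 and 4.74 at GD9.0, then 1.92, 2.45, 2.04 and 2.10 at GD9.5. The step to GD9.0 made up 55.3% of its whole log2 change, with -3.18 in the first interval and -2.57 in the second. With a mean of 2.13 ± 0.23 at GD9.5 (SD, n = 4), all of its GD9.5 arrays lay above the background. It had 1 probe set.

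Spink1 encodes a secreted inhibitor of trypsin, best known from the pancreas. It read 7.05 and 7.16 at GD8.5, then 3.04, 2.97, 3.07 and 3.23 at GD9.0, then 1.73, 1.64, 1.26 and 1.49 at GD9.5. Its GD9.0 level was 16.3-fold below that of GD8.5, the largest difference of the 10 genes at this interval, and the second log2 change was -1.55, with GD9.5 arrays on both sides of the background. It too had 1 probe set.

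Among the apolipoproteins, Apoa1, the protein that high-density lipoprotein is built around, read 7.40 and 7.33 at GD8.5, then 3.38, 3.40, 3.53 and 3.11 at GD9.0, then 1.70, 1.82, 1.66 and 1.68 at GD9.5. The first interval held 71.0% of its whole log2 change (-4.01, then -1.64). Its 4 probe sets gave -4.01 to -3.27 and -1.66 to -1.41. The names of 3 of these 4 sets end in _x_at, and that of the other in _a_at, which marks probes that read several transcripts of a gene.

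Apoc2 encodes the cofactor of lipoprotein lipase. It read 7.10 and 6.98 at GD8.5, then 2.86, 3.42, 3.30 and 3.28 at GD9.0, then 1.79, 1.62, 1.98 and 1.84 at GD9.5. It resembled Apoa1 in its course, with log2 changes of -3.83 and -1.41. Its spread at GD9.0 (SD 0.24, n = 4) was the widest of the 10 genes at that stage, and came from replicate 1 at 2.86.

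Apob encodes apolipoprotein B, the structural protein of very-low-density lipoprotein, without which visceral endoderm cannot export lipid. It read 5.77 and 5.82 at GD8.5, then 2.04, 2.03, 2.48 and 2.19 at GD9.0, then 1.31, 1.34, 1.36 and 1.07 at GD9.5. Its GD9.0 level was 12.3-fold below that of GD8.5. Its GD9.5 mean, alone among the 10 genes, lay under the background, so it was at least 1.68-fold lower at GD9.5 than at GD9.0. Its dimmer probe set gave log2 changes of -1.37 and -0.06, and the mean of both sets -2.49 and -0.49.

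Apom, a lipocalin of high-density lipoprotein that binds sphingosine 1-phosphate, read 5.94 and 5.93 at GD8.5, then 2.62, 2.45, 2.89 and 2.44 at GD9.0, then 1.34, 1.46, 1.31 and 1.65 at GD9.5. The log2 changes were -3.34 and -1.16, and those of its dimmer probe set -2.41 and -0.44.

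Apoa4, made with chylomicrons in the gut and in yolk sac, read 4.88 and 5.34 at GD8.5, then 2.48, 2.47, 2.62 and 2.32 at GD9.0, then 1.79, 1.95, 1.57 and 1.58 at GD9.5. Its brightest probe set has a name in _x_at, like that of Ttr. Its GD8.5 arrays differed more from each other than those of the other 9 genes (SD 0.33, n = 2), and still lay above all later arrays (log2 changes -2.64, then -0.75, or -0.47 for the mean of both probe sets in the second interval). Apoa2, the second protein of high-density lipoprotein, read 4.01 and 4.14 at GD8.5, then 2.37, 2.36, 2.19 and 2.45 at GD9.0, then 1.55, 1.66, 1.72 and 1.62 at GD9.5. Its stages did not overlap either, although its log2 changes of -1.73 and -0.71 were the smallest among the brightest probe sets of the 10 genes (with probe sets averaged, those of Afp in the first interval and of Apoa4 and Apob in the second were smaller).

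Promoter windows were found for 8 of the 10 genes, 10 windows in all. Those of Apoa1 (chr9:46228380-46228679, plus strand) and Apoa2 (chr1:171224804-171225103, plus strand, the one of its 2 windows with more matches) are shown. Each of these genes had 71.0% of its log2 change by GD9.0. The other apolipoproteins, whose windows are not shown, had larger shares, 73.1% to 79.8%. GD9.5 levels near the background limit these shares. The FOXA variant stood at -88 and again at -75 in Apoa1. The HNF4 core stood at -48 on the opposite strand, the FOXA motif at -77 and TATAAA at -212 in Apoa2.
Apoa1: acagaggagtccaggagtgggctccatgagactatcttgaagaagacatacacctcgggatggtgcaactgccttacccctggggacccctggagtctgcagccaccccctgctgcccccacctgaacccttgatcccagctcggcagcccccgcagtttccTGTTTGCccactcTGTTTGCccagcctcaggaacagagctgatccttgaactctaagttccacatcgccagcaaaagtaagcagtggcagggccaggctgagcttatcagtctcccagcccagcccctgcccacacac
Apoa2: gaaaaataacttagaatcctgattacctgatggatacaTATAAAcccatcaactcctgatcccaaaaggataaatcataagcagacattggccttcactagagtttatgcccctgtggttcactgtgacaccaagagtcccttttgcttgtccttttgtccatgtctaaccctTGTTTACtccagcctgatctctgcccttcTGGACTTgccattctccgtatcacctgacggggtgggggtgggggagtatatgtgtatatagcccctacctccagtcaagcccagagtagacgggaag

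Over the 10 windows, the HNF4 core was found in 2 (both of Apoa2), against 4.17% of all 32851 promoter windows. The FOXA motif was found in 2 (Apoa2 and Rbp4) against 3.65%, and its variant in 3 (Afp, Apoa1 and Apob) against 5.07%. TATAAA was found in 4 (Afp, Apoa2, Apob and Rbp4) against 13.6%, and the GATA motif in 0 against 11.2%. Apoa4, Apoc2 and Apom held none of these letters in their windows. These counts describe the letters of short windows and say nothing of binding.

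Read from their brightest probe sets, the genes did not keep their proportions to each other between stages. At GD9.0 Afp and Apoa2 kept 25.7% and 30.2% of their GD8.5 level and Apoa4 kept 16.1%. Ttr, Rbp4, Apom, Apob, Apoc2, Apoa1 and Spink1 kept 6.15% to 11.1%. Apoa2 and Apoa4 began nearer the background, at 4.07 and 5.11. A drop as large as that of Apoa1 or Spink1 could not have been measured for them. At the next interval the order was another one. Afp and Ttr were at 2.62% and 4.01% of their GD9.0 level and Rbp4 at 16.9%, while the other 7 genes were at 32.1% to 61.3%. Those 7 had GD9.0 means of 2.18 to 3.35, within 2 log2 units of the background, so a drop as large as that of Afp or Ttr could not have been measured for them. In the first interval all stage means of the 10 genes lay above the background. The log2 changes of Afp (-1.96) and Apoa1 (-4.01) differed by more than the SDs of 0.0069 to 0.17 of either gene within a stage. These SDs do not cover differences between probe sets. The 3 Afp sets above the background at GD8.5 gave -2.34 to -1.86 and the 4 of Apoa1 -4.01 to -3.27, but the 2 of Apob gave -3.61 and -1.37. Whether genes or only their probe sets differed was not tested.

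**Figure D2:**
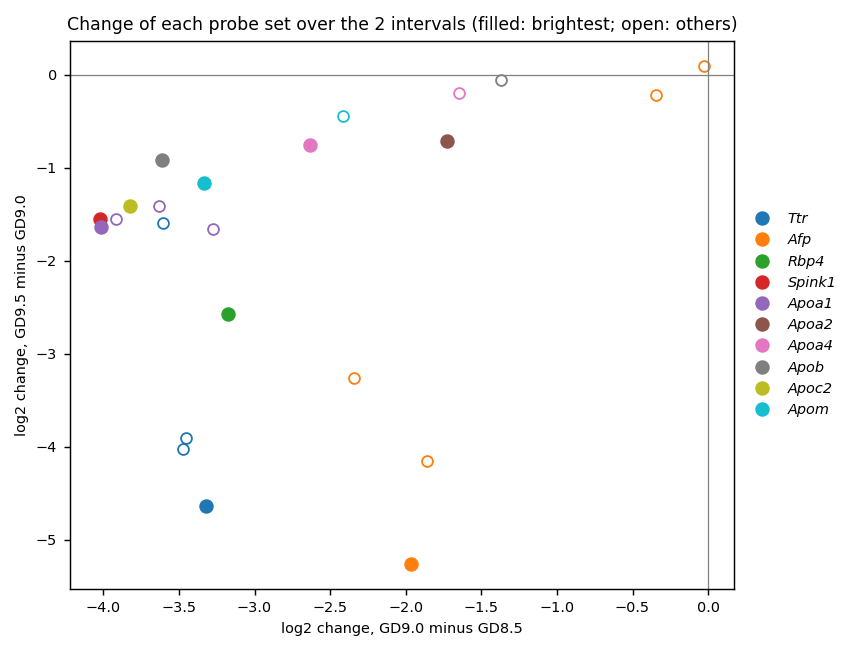
Log2 change at GD9.0 minus GD8.5 (horizontal axis) against that at GD9.5 minus GD9.0 (vertical axis) for all 23 probe sets, coloured by gene, with the brightest probe set of each gene filled. The bright probe sets of Afp and most of Ttr sit low in the plot, Spink1, Apoa1 and Apoc2 sit to the left with second changes from -1.64 to -1.41, and the 2 dim Afp sets lie near 0. The axes share the GD9.0 arrays.

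The linear GD8.5 arrays hold the same genes in samples that did not enter these means. Because their scale differs, each gene was ranked among 45037 probe sets of its own array. Percentiles of the 10 genes ran from 66.8 to 98.7 on the linear GD8.5 arrays and from 73.6 to 98.6 on the log2 arrays of that stage. They ran from 54.7 to 91.7 at GD9.0 and from 16.8 to 60.5 at GD9.5. For each gene both linear arrays ranked it above every GD9.0 array. How many of all probe sets did the same was not counted, and the linear arrays may have been processed differently. Nothing further is read from this. Ttr stood at the 98.7th percentile on both linear arrays, against 87.6 to 88.6 at GD9.0 and 36.4 to 47.5 at GD9.5. Apoa1 stood at 92.7 and 93.0, then at 67.0 to 70.0 at GD9.0. The linear arrays differed most for Apoa2, with intensities of 222 and 502 (percentiles 66.8 and 77.8), against percentiles of 57.9 to 60.9 at GD9.0.

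**Figure D3:**
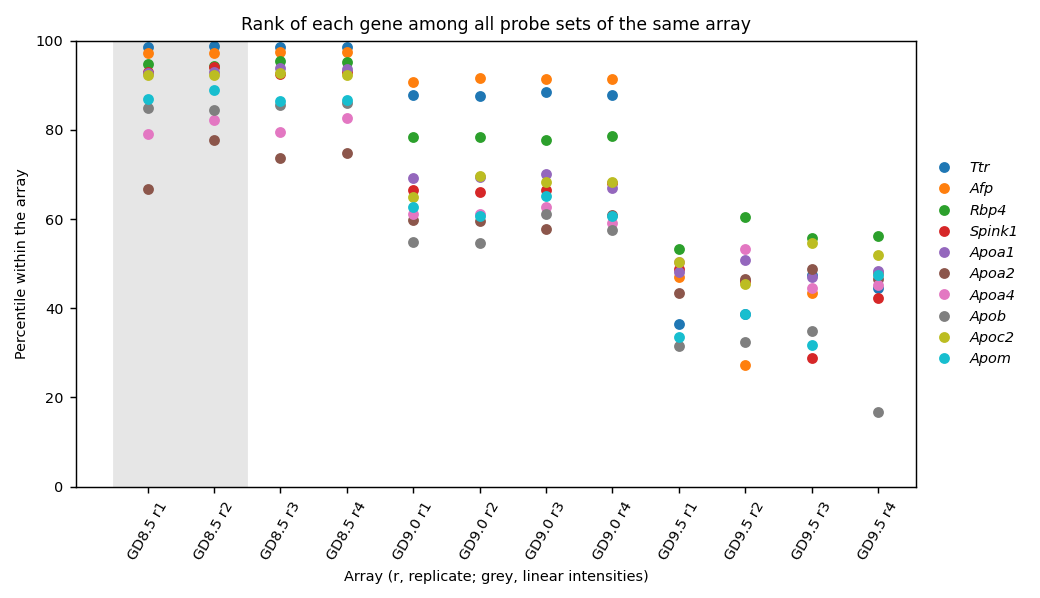
Percentile of each gene's brightest probe set among all probe sets of the same array (vertical axis, percent) on the 12 arrays (horizontal axis), with the 2 linear GD8.5 arrays on grey. The linear arrays place the genes at 66.8 to 98.7, next to the log2 GD8.5 arrays, and the GD9.5 arrays place them at 16.8 to 60.5.

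Differences within a stage were small beside those between stages. The SDs of the 10 genes were 0.0069 to 0.33 at GD8.5 (median 0.045), 0.043 to 0.24 at GD9.0 (median 0.12) and 0.070 to 0.23 at GD9.5 (median 0.15), against medians over all genes of 0.068, 0.10 and 0.10. Counting genes above their own stage mean gave 5, 5, 7 and 6 of 10 on the GD9.0 arrays and 4, 7, 5 and 4 on the GD9.5 arrays. The mean deviation of the 10 genes was largest on GD9.0 replicate 3, at 0.096, where the visceral endoderm regulators deviated by -0.068, the cardiac muscle list by 0.0038 and the decidua list by -0.0023. On GD9.0 replicate 1, the lowest for the 10 genes at -0.058, these lists stood at 0.039, 0.054 and -0.034. At GD9.5 the array highest for the 10 genes, replicate 2 at 0.034, was also the highest for the regulators, at 0.044.

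Markers of some other tissues moved between the same stages. These lists and the gene lists below were chosen with earlier results of these arrays known. Their counts of called genes are therefore a description, and nothing is read from their difference from the shares over all genes. The mean log2 level of 10 cardiac muscle genes was 5.90 ± 0.06 at GD8.5 (SD, n = 2), 3.18 ± 0.04 at GD9.0 (n = 4) and 1.54 ± 0.06 at GD9.5 (n = 4), and limma called 10 of 10 lower at GD9.0 and 9 of 10 at GD9.5. All 10 lay above the background at GD8.5 and GD9.0 and 6 of 10 at GD9.5. Probe sets of a gene could differ in the first interval, from -3.69 to -0.20 for Tnnt2, from -3.49 to -0.06 for Myh6 and from -3.41 to -0.22 for Myl4. The decidua list of 5 genes stood at 3.98 ± 0.09, 2.03 ± 0.04 and 2.12 ± 0.06, with 4 of 5 lower at GD9.0 and 1 lower and 1 higher at GD9.5, and with 4, 3 and 1 of 5 above the background at the 3 stages. Its median log2 change at GD9.0 was -0.83, with the largest changes in Prl8a2 (-4.95) and Hand2 (-3.14). Dcn and Prl3c1 began lower, at 2.61 and 1.81 at GD8.5, and Prl3c1 was under the background at GD9.0. Igfbp1 did not pass. How far each gene of the list, Hand2 included, marks decidua in this tissue was not tested. The 3 probe sets of Hand2 ranged from -3.14 to -0.10, and the call of Dcn was lost without GD8.5 replicate 4 (limma adjusted p = 0.11). The endothelium list of 7 genes stood at 3.37 ± 0.02, 3.24 ± 0.02 and 3.12 ± 0.03, with 1 lower and 1 higher at GD9.0 and 3 lower at GD9.5. The erythroid list went the other way, at 5.02 ± 0.12, 6.10 ± 0.05 and 6.74 ± 0.06, with 6 of 8 genes higher at GD9.0 and 7 of 8 at GD9.5. The regulators of visceral endoderm stood at 2.70 ± 0.01, 1.97 ± 0.05 and 1.84 ± 0.04. The gut endoderm and liver bud list of 8 genes stood at 3.71 ± 0.05, 3.25 ± 0.08 and 3.05 ± 0.06, with 7 of 8 above the background at each stage. Of these 8, 5 were lower and 0 higher at GD9.0 (Epcam, Cldn6, Krt19, Shh and Cdx2), and 3 were lower and 1 higher at GD9.5 against GD9.0. Beside these counts, limma called 6.74% of all genes lower and 6.78% higher at GD9.0 against GD8.5. At GD9.5 against GD9.0 it called 10.3% and 14.1%. The part of these tissues in the levels of the 10 genes was not tested.

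The genes with the course most like Apoa1, by the root mean square distance between stage means after each gene was centred over the 3 stages, were Tnnt2 (distance 0.25 log2 units), Myl4 (0.27), Cubn (0.29), Phlda2 (0.31) and Tnnc1 (0.34). For Afp they were Actc1 (0.46), Myl7 (0.70), Eras (1.16), Myl4 (1.26) and Phlda2 (1.42), with distances above those of Apoa1. Tnnt2, Myl4, Tnnc1, Actc1 and Myl7 encode sarcomere proteins, and Cubn the endocytic receptor cubilin. The distance rests on 3 stage means over 10 arrays and on the brightest probe set of each gene. Over all probe sets, the first log2 change ran from -3.69 to -0.20 for Tnnt2 and from -3.41 to -0.22 for Myl4. The GD9.5 means of Tnnt2, Myl4 and Cubn (1.33, 1.01 and 1.27) lay under the background. Nothing is therefore read from the order of these genes.

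Most other plasma proteins did not pass the test in either interval. Of 23 listed, 20 were measured, and at GD9.0 against GD8.5 limma with Benjamini-Hochberg adjustment called 4 lower and 2 higher, where 6.74% of all 18193 genes were lower and 6.78% higher. At GD9.5 against GD9.0 it called 0 lower and 2 higher (10.3% and 14.1% of all genes), and at GD9.5 against GD8.5 it called 7 lower and 2 higher (13.1% and 15.5% of all genes). The list's median log2 changes were -0.10 and -0.010, beside -0.0019 and -0.0077 for all genes. The number above the background was 13, 6 and 4 of 20 at the 3 stages, while Alb, Serpina1b, Hpx, Hp, F2, Itih2 and Kng1 had all 3 stage means under it. Alb, albumin, stood at 1.14, 1.19 and 1.21 at the 3 stages. It is the chromosomal neighbour of Afp.

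The fibrinogen chains Fgb and Fgg were among the plasma proteins that fell. Fgg was at 1.36 at GD9.0, under the background, against 2.42 at GD8.5, at least 1.98-fold lower (adjusted p = 7.9e-05 by limma), and Fgb was at 1.36 at GD9.0 against 2.30 at GD8.5, at least 1.82-fold lower (adjusted p = 1.7e-04 by limma). Serpinf2, the plasmin inhibitor, changed by -0.51 ± 0.14 (SE, limma adjusted p = 0.029), but by 0.03 with 12 arrays after quantile normalization, and its call was lost without GD8.5 replicate 3, GD8.5 replicate 4 or GD9.0 replicate 2 (limma adjusted p = 0.091, 0.20 and 0.063) and with the replicate block (-0.37, limma adjusted p = 0.054). Vtn and Cp rose. Vtn, vitronectin of the extracellular matrix, had log2 changes of 1.02 ± 0.16 at GD9.0 and 1.82 ± 0.13 at GD9.5 (SE, limma adjusted p = 0.0011 and 2.3e-06), with both probe sets higher in both intervals. Cp, the copper carrier ceruloplasmin, had 1.37 ± 0.15 and 0.50 ± 0.13 (limma adjusted p = 1.2e-04 and 0.013), with 8 probe sets from 0.03 to 1.37 and from -0.08 to 0.66. The second call of Cp was lost with 12 arrays (limma adjusted p = 0.41).

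Of the genes that build and process lipoproteins, 4 of 16 measured were lower and 0 higher at GD9.0 against GD8.5, and 3 were lower and 2 higher at GD9.5 against GD9.0. The list's median log2 changes were -0.21 and -0.035. Among all genes, 6.74% were lower and 6.78% higher in the first of these comparisons, and 10.3% and 14.1% in the second. Apoe, the ligand of lipoprotein receptors, was at 5.50 at GD9.0 against 6.87 at GD8.5, 2.58-fold lower, and at 4.46 at GD9.5 against 5.50 at GD9.0, 2.05-fold lower (limma adjusted p = 2.4e-07 and 4.7e-07). Mttp, the transfer protein that loads lipid onto apolipoprotein B, was at 2.88 at GD9.0, 2.55-fold below its GD8.5 level of 4.23 (limma adjusted p = 6.1e-05) and then at 2.95 at GD9.5, which did not pass. Apoc1, of the cluster that holds Apoc2, changed by -0.51 ± 0.10 (SE) at GD9.0 (limma adjusted p = 0.0053, and 0.057 without GD8.5 replicate 4). Apod, a lipocalin, and Lpl, lipoprotein lipase, rose at GD9.5 by 0.93 ± 0.15 and 0.53 ± 0.06 (SE, limma adjusted p = 0.0010 and 1.0e-04), and Lpl missed the threshold with 12 arrays (limma adjusted p = 0.0502).

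Neighbouring apolipoprotein genes were also measured. Apoc3 and Apoa5, which lie beside Apoa1 and Apoa4 on chromosome 9, had means of 1.56 and 1.65 at GD8.5 and did not pass at GD9.0 against GD8.5 (limma adjusted p = 0.086 and 0.17). At GD9.5 against GD8.5 Apoc3 was called lower, at least 1.10-fold (limma adjusted p = 0.025), and Apoa5 did not pass. Apoc4, near Apoc2 on chromosome 7, lay under the background at all stages. The 3 nearest protein-coding genes were taken on each side of the 8 genes that are not on chromosome 18. Of 43 neighbours, 38 were measured. By limma, 4 were lower, among them Apoc1, and 4 higher at GD9.0 (6.74% and 6.78% of all genes). At GD9.5 against GD9.0, 4 were lower and 6 higher (10.3% and 14.1% of all genes). Their median log2 change in the first interval was 0.012.

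**Figure D4:**
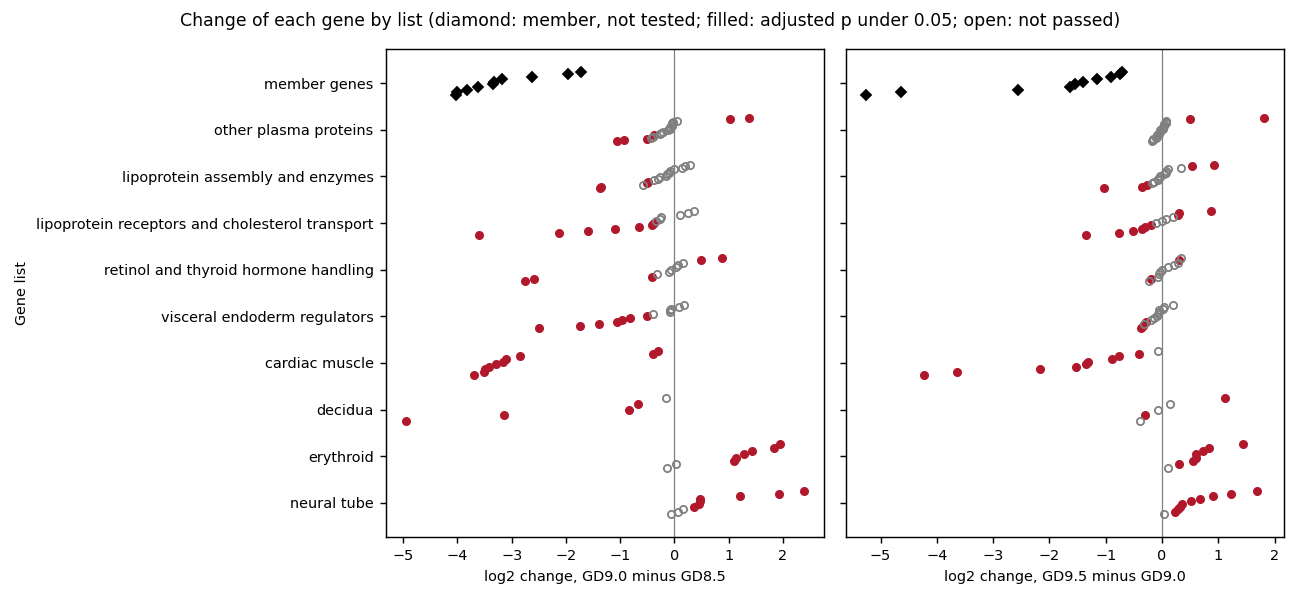
Log2 change of each gene at GD9.0 minus GD8.5 (left) and GD9.5 minus GD9.0 (right), by gene list (vertical axis). Diamonds are the 10 secreted protein genes, which were not tested, filled red points passed an adjusted p of 0.05 by limma and open grey points did not. The plasma protein list gathers near 0 apart from Fgb and Fgg in the left panel and Vtn and Cp to the right in both, and the cardiac list reaches -3.69 in the left panel and -4.22 in the right.

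Of the receptors that take up lipoproteins and carrier proteins, 7 of 13 measured were lower and 0 higher at GD9.0 (6.74% and 6.78% of all genes). At GD9.5 against GD9.0, 6 were lower and 3 higher (10.3% and 14.1% of all genes). The list's medians were -0.37 and -0.10. Cubn and Amn, which form the cubam receptor of visceral endoderm, had GD9.0 levels 12.2-fold and 4.36-fold below those of GD8.5 (limma adjusted p = 4.4e-09 and 1.3e-07), and both were under the background at GD9.5. Lrp2, megalin, which is also made by neuroepithelium, changed by -0.26 ± 0.11 (SE) at GD9.0, which did not pass, and by -0.76 ± 0.09 at GD9.5 (limma adjusted p = 8.0e-05). Lrp8, an Apoe and reelin receptor of neurons, rose by 0.88 ± 0.14 at GD9.5 (limma adjusted p = 6.9e-04). Lrp1 and Abca1 were called higher at GD9.5, but their probe sets differed in sign, and both calls were lost when probe sets of a gene were averaged (limma adjusted p = 0.99 and 0.72).

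Partners of Ttr and Rbp4 in retinol and thyroid hormone handling moved both ways. Of 11 measured, 3 were lower and 2 higher at GD9.0 (6.74% and 6.78% of all genes). At GD9.5 against GD9.0, 1 was lower and 1 higher (10.3% and 14.1% of all genes). The list's medians were -0.067 and -0.0052. The lower gene at GD9.5, Crabp2 (-0.20 ± 0.06, SE, limma adjusted p = 0.030), lost its call under median centring and with 12 arrays (limma adjusted p = 0.086 and 0.068) and without any 1 of GD9.0 replicates 1 and 3 and GD9.5 replicates 1, 2 and 4 (0.067 to 0.077). Stra6, the cell surface receptor for the retinol carrier, stood at 1.64, 1.70 and 1.63 at the 3 stages and did not pass. Aldh1a2, which makes retinoic acid, had a GD9.0 level at least 5.88-fold below that of GD8.5, and Cyp26a1, which breaks it down, one 6.73-fold below (limma adjusted p = 1.3e-07 and 2.3e-07). Crabp1 and Crabp2, which bind retinoic acid inside cells, rose at GD9.0 by 0.49 ± 0.06 and 0.87 ± 0.07 (SE, limma adjusted p = 2.0e-04 and 9.5e-06).

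Of 13 measured regulators of visceral endoderm, 7 were lower and 0 higher at GD9.0 (Hnf4a, Foxa1, Foxa2, Foxa3, Gata6, Sox17 and Hhex), and 3 were lower at GD9.5 (Foxa1, Foxa2 and Hhex). The GD9.5 call of Hhex was lost under median centring, a trend with robust spread and 12 arrays (limma adjusted p = 0.059, 0.058 and 0.21) and without any 1 of 7 of the 10 arrays (GD8.5 replicates 3 and 4, GD9.0 replicates 1 to 3, GD9.5 replicates 1 and 3; limma adjusted p of 0.053 to 0.11). Hnf4a, the nuclear receptor named above, was at 1.83 at GD9.0 against 2.81 at GD8.5, 1.97-fold lower (limma adjusted p = 4.2e-04), and at 1.69 at GD9.5. Gata6 was at 1.76 at GD9.0 against 4.26 at GD8.5 (5.67-fold lower, limma adjusted p = 3.2e-08), while its 3 probe sets ranged from -2.50 to -0.11 in log2 change. Foxa1 and Foxa2, which also mark the floor plate or gut, stood at 3.27 and 3.36 at GD9.5. The list's median log2 changes were -0.50 and -0.098. Calls over all genes were 6.74% lower and 6.78% higher at GD9.0, and 10.3% and 14.1% at GD9.5 against GD9.0.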

How the data were processed

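Biotin-labelled cDNA of each sample was run on an Affymetrix mouse genome expression array, per the labels' protocols and the design text. GCRMA, RMA and Affymetrix Expression Console 1.2.1 are listed in the submitters' processing notes, which do not say what each was used for. The authors deposited log2 values for 10 arrays, with array medians of 1.75 to 1.82, and linear intensity values for GD8.5 replicates 1 and 2, with medians of 92.2 and 98.3. The sources used here do not give the normalization of either kind.

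Probe sets were named from the platform annotation, with symbols updated through the gene ID to the RefSeq annotation of GRCm38.p6. Of 45101 probe sets, 34945 named 1 gene, 932 named several and were not used, and 64 were controls. A gene was read from its brightest probe set over the 10 log2 arrays. Stage means of the 10 log2 arrays came from limma 3.58.1 (R 4.3.3; 7 residual degrees of freedom, prior 3.86), and p-values were adjusted with Benjamini-Hochberg over 18193 genes at 0.05. SE denotes the standard error from limma. A fold whose later stage lies under the background is given against the background. The fit was tested on simulated data.

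The 10 genes and all lists were chosen with earlier results of these data known. Named in the text are all 10 genes, genes from among the up to 3 called with the largest change per direction, list and interval, and the 5 nearest in course to Apoa1 and to Afp. Some genes that this rule selects, such as Dab2, Rdh10 and Kdr, are not described. Genes given outside this rule, such as Alb, Hnf4a, Stra6, Foxa3 and the chromosomal neighbours, were picked after their values were seen. The labels do not say that equal replicate numbers share a litter, and deviations of equal numbers correlated between -0.062 and 0.10 over genes, so no block was used. P-values measure the spread between the labelled replicates. Alternatives were median centring, averaging the probe sets of each gene, dropping dim genes, 12 arrays after quantile normalization, a trend with robust spread, a replicate block, and leaving out each array.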

Additional observations from a re-analysis of the deposited data

How the results depend on the processing

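The median change of the 10 genes kept its direction under every alternative tried. Leaving out 1 array at a time gave -3.40 to -3.29 at GD9.0 against GD8.5, -1.54 to -1.44 at GD9.5 against GD9.0 and -5.43 to -5.38 at GD9.5 against GD8.5. Averaging all probe sets of a gene gave -3.02 at GD9.0 against GD8.5 and -4.55 at GD9.5 against GD8.5, and Afp then had log2 changes of -1.31 and -2.56 over the 2 intervals. At GD9.5 against GD8.5, median centring gave -5.37 and 12 arrays after quantile normalization gave -5.25. Of 180 values for single members under the other alternatives, 24 moved by more than the spread between arrays and 0 changed sign.

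Calls over all genes numbered 2460, 4429 and 5209 in the same 3 comparisons. Without 1 array they were 1387 to 2391, 3761 to 4274 and 3574 to 5194. GD9.0 against GD8.5 fell to 1526 without GD8.5 replicate 3 and to 1387 without GD8.5 replicate 4, which leave 1 array at that stage, assumed to vary like the others. With 12 arrays the count at GD9.5 against GD9.0 was 2295. Of all genes, 6.74% were lower and 6.78% higher in the first comparison, 10.3% and 14.1% in the second, and 13.1% and 15.5% in the third. The 4 lists of plasma proteins, lipoprotein assembly, receptors and retinol handling had 20, 16, 13 and 11 measured genes. Together they held 18 lower and 4 higher genes at GD9.0 against GD8.5, 10 and 8 at GD9.5 against GD9.0, and 26 and 7 at GD9.5 against GD8.5. Without 1 array these were 16 to 20 and 4 to 4, 8 to 11 and 7 to 9, and 21 to 26 and 7 to 8. With 12 arrays 4 were higher at GD9.5 against GD9.0. Serpinf2 (0.028 with 12 arrays) and Lrp1 (-0.0013 with the mean of probe sets) reversed. The replicate block gave medians of -3.26, -1.48 and -5.38 for the 10 genes and changed no count by over 1.5 times, but ended the calls of Serpinf2 and Lrp1 (limma adjusted p = 0.054 and 0.095). Signals near 1.43 limit what a second fall can show. Of 432 values for named list genes under the other alternatives, 19 lost their call without a change of sign. The 2 reversed values, of Serpinf2 and Lrp1, lost theirs as well. Of the 19, 10 were Cp, Lpl, Lrp1, Abca1, Amn, Crabp2, Hhex, Krt19, Tek and Hand2 at GD9.5 against GD9.0 with 12 arrays. The cause was not tested.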

Other observations

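The decidual hormone gene Prl8a2 did not follow the 10 genes through the second interval. It stood at 5.64 at GD9.5 against 4.52 at GD9.0, a log2 change of 1.12 ± 0.08 (SE, limma with Benjamini-Hochberg adjusted p = 3.7e-06), after 4.52 at GD9.0 against 9.47 at GD8.5. Cyp26a1 was at 2.72 at GD9.5 against 2.39 at GD9.0, which did not pass (limma adjusted p = 0.064), while Aldh1a2 stayed under the background. Epcam, a gene of endoderm and other epithelia, was at 6.10 at GD9.5 against 6.93 at GD9.0 (limma adjusted p = 5.2e-07). By Dixon's gap-to-range criterion at the 95% level, 0 of the 20 sets of 4 arrays (10 genes at GD9.0 and at GD9.5) held an outlying array.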
